A study of Homo sapiens with 6 samples.

Results

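The genes described here were the transforming growth factor beta (TGF-beta) ligands, receptors and latent binding proteins, with the activin subunit INHBA and the matrix protein TGFBI, in HGC-27 cells carrying a short hairpin RNA against ACAT2. They were chosen by gene symbol, and all 10 were found among the 58735 genes of the deposited table. HGC-27 is an established line of undifferentiated human gastric carcinoma, and ACAT2 is an enzyme that joins acetyl-CoA units at the start of cholesterol synthesis. The reference group, shNC, was labelled WT and had received the control vector pSIH-H1-Puro-shNC. The other group, shACAT2, was labelled ACAT2 knockdown and had received pSIH-H1-Puro-shACAT2, in which the H1 promoter drives the hairpin. Both groups had 24 h of exposure to the vector and 7 days of puromycin selection, in medium with fetal bovine serum. The labels do not say which hairpin sequence was used or whether the cells were a single clone. RNA from 3 replicate libraries of each group, described by the submitters as biological replicates, had been sequenced. The question put to the data was how the genes of this pathway differed in transcript level between shACAT2 and shNC.

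TGF-beta ligands are secreted in a latent form, held by their own propeptide and tied to the extracellular matrix by latent TGF-beta binding proteins. Released ligand is bound by the type II receptor TGFBR2, which phosphorylates the type I receptor TGFBR1, and TGFBR1 in turn phosphorylates SMAD2 and SMAD3 so that they enter the nucleus with SMAD4. The pathway is known in epithelial tumours, gastric carcinoma included, both for arresting growth and for promoting a mesenchymal state and matrix production. All values are the deposited FPKM, fragments scaled to gene length and to a denominator for each library. That denominator was 0.957 to 1.07 times the fragments assigned to genes, so it was not exactly the library total. Levels are set side by side between genes and between libraries on this scale.

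Each library held 14086416 to 16067486 fragments assigned to genes. ACAT2 itself was at 14.2, 11.7 and 12.7 FPKM in shNC-1, shNC-2 and shNC-3, and at 6.19, 5.46 and 6.05 in shACAT2-1, shACAT2-2 and shACAT2-3, so the groups did not overlap. Its log2 fold change was -1.01 (SE 0.10, limma adjusted p = 0.00594, or 0.0512 without shNC-3). The library shACAT2-3 stood apart in genes that were silent in the other 5 libraries. It held 0.778 fragments per kilobase of such genes, against 0.0508 to 0.0809 in the others. Of the shNC libraries, numbers 2 and 3 were closer to each other than any other pair within a group, with a chi-square per gene of 1.73 against 12.1 to 46.0, still above sampling noise. Of 10 epithelial and gastric markers none passed the filter, and TFF1 and GKN1 were at 0 in all 6 libraries. Their summed level was 0.894 to 1.27 FPKM in shNC and 1.62 to 2.75 in shACAT2. The labels call the cells gastric cancer cells, and 9 of these 10 defining markers stayed under 1 FPKM in every library. CDH1, or E-cadherin, 1 of the 2 named for the highest mean level, was at 0.161 ± 0.0540 FPKM in shNC and 0.863 ± 0.275 in shACAT2 with no overlap. CLDN18, a gastric claudin named here after its values were seen, was at 0.362 ± 0.0682 and 0.265 ± 0.0955 with overlap. The keratin KRT8, highest of the 10 by its mean over the 6 libraries, was at 0.528 ± 0.124 and 0.676 ± 0.141 FPKM with overlap. The summed level of 8 fibroblast markers was 245 to 271 FPKM in shNC and 328 to 392 in shACAT2, and that of 8 leukocyte and endothelial markers was 1.17 to 1.50 and 1.71 to 1.87. The sum of the fibroblast markers thus moved with the group, as did the low sums of the other marker lists, beside the ligands described next. In shACAT2-3 the rate in silent genes equals 0.0519 FPKM for each gene in these sums. The part of the marker sums in those results was not tested. Of the fibroblast markers 5 passed the filter, and 1, LUM, the matrix proteoglycan lumican, was called higher, at 31.4 ± 3.17 FPKM in shNC and 49.5 ± 5.70 in shACAT2 (limma adjusted p = 0.0423), while the collagen COL3A1, the highest of them, was at 213 ± 16.1 and 297 ± 36.0 (0.0916) and supplied most of the sum. Not all of them lay higher in shACAT2. PDGFRA, also named after its values were seen, was at 2.46 ± 0.183 and 1.56 ± 0.185 FPKM (0.0701), and FAP, below the filter, at 0.847 ± 0.201 and 0.387 ± 0.126, both with no overlap between groups.

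Within the shNC libraries the levels of the 10 genes spanned from 37.5 FPKM to nearly 0. LTBP1 was highest, at 37.5 ± 1.27 FPKM (SD, n = 3). It was followed by TGFB1 at 23.6 ± 2.05, TGFBR1 at 9.05 ± 1.21, TGFB3 at 5.83 ± 0.425 and TGFB2 at 1.82 ± 0.186. TGFBR3 at 0.868 ± 0.145 and LTBP2 at 0.538 ± 0.0541 came next, and TGFBR2, INHBA and TGFBI lay near the limit of detection. In shNC the only neighbours in this order whose libraries overlapped were INHBA and TGFBI. In shACAT2 the first 8 genes stood in the same order, but overlap between neighbours was more frequent. LTBP1 overlapped TGFB1, TGFBR1 overlapped TGFB3, TGFBR3 overlapped LTBP2, TGFBR2 overlapped TGFBI, and TGFBI overlapped INHBA.

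**Figure D1:**
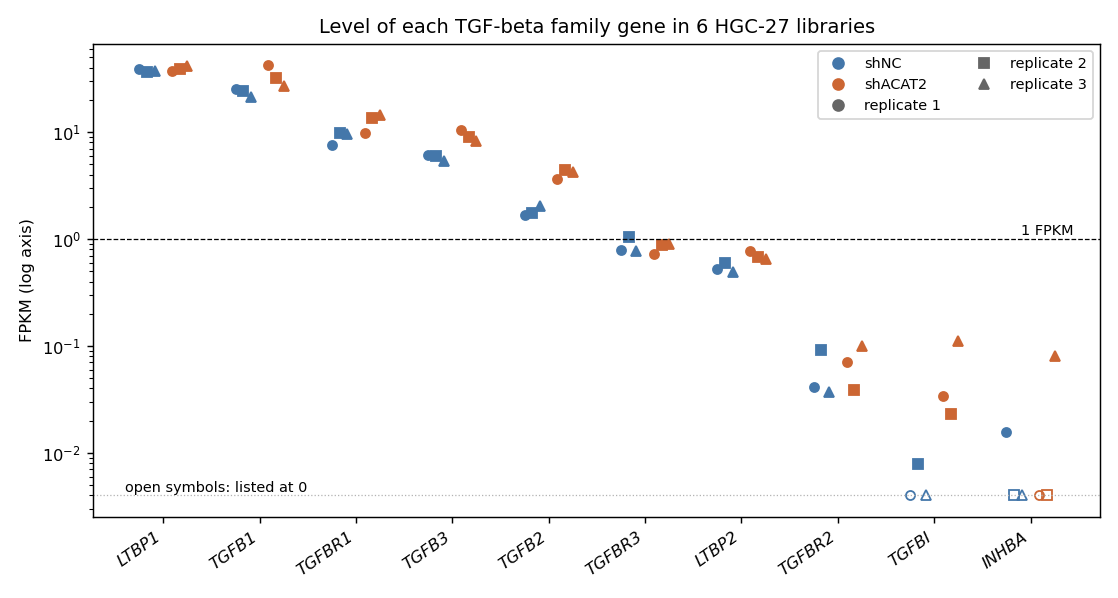
FPKM (log axis) of the 10 genes, ordered by mean, in the 3 shNC and 3 shACAT2 libraries; each point is 1 library and open symbols mark values listed at 0. The 5 genes at the left lay above the dashed line at 1 FPKM in every library, and TGFBR2, TGFBI and INHBA reached at most 0.111 FPKM.

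Transcripts of 2 ligand genes, TGFB2 and TGFB3, were higher in shACAT2 than in shNC at an adjusted p under 0.05, and none of the 5 genes tested was called lower. The test, limma on log2(FPKM + 1), covered the 13832 genes whose mean reached 1 FPKM in one group or both, and 5 of the 10 genes were among them. Each of the 5 had a mean above 1 FPKM in both groups, so none passed only through the group in which it was high. Over all genes tested, 5.10% were called in either direction and 3.30% were called higher. All 5 fold changes were positive, with a median log2 fold change of 0.48 against 0.02 over all genes tested. The libraries of the groups did not overlap for 4 of the 5, with shACAT2 higher, where 16.2% of all genes tested did so. With the replicate number as a block, 4 of the 5 were called, beside 12.5% of all genes tested. None of the 5 met the other rule tried, an absolute log2 fold change above 1 at an unadjusted p under 0.05, which 1.50% of all genes tested met. That count of 0 rested on the pseudocount of 1, since TGFB2 met the rule with a pseudocount of 0.1 (log2 fold change 1.13, where 3.47% of all genes met it) and with limma-voom (1.16, 3.50%). At an unadjusted limma p under 0.05 there were 4 of the 5, beside 23.5% of all genes tested. Exact two-sided permutation tests of 3 against 3 libraries cannot go below p = 0.1, so they only show whether groups overlap. In RNA from whole cultures, more cells that express a gene and more RNA of it per cell cannot be told apart.

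TGFB2 (ENSG00000092969, hg38 chr1:218346235-218444619, plus strand) encodes the ligand whose binding to cells depends most on the co-receptor TGFBR3. It was at 1.67, 1.75 and 2.03 FPKM in the shNC libraries and at 3.62, 4.40 and 4.23 FPKM in the shACAT2 libraries. Every shACAT2 library lay above every shNC library, and the gap between the groups was wider than the range within either. The group means were 1.82 ± 0.186 and 4.08 ± 0.412 FPKM (SD, n = 3 per group), in a ratio of 2.25. On the log2(FPKM + 1) scale, which understates changes of low genes, the log2 fold change was 0.85 (SE 0.11, 95% interval 0.60 to 1.10, limma adjusted p = 0.0106). On the fragments themselves, 132 to 377 per library, limma-voom gave a log2 fold change of 1.16 (adjusted p = 0.00319). Same-numbered libraries differed by 2.16, 2.52 and 2.09 times. The call was lost when shACAT2-2 was left out (adjusted p = 0.0594), and equally when shNC-1 (0.0544), or shNC-2 (0.0696), or else shNC-3 (0.056) was. The exons of TGFB2 share 1371 of 5151 bases with TGFB2-OT1, a non-coding RNA on the same strand that was listed at 0 in every library.

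TGFB3 (ENSG00000119699, hg38 chr14:75958099-75982991, minus strand) encodes the ligand best known from palate and connective tissue development. It was at 6.16, 5.97 and 5.35 FPKM in shNC and at 10.4, 8.91 and 8.25 FPKM in shACAT2. The groups did not overlap, and the lowest shACAT2 library was about as far above the highest shNC library as the shACAT2 libraries were from each other. The mean rose from 5.83 ± 0.425 to 9.18 ± 1.10 FPKM, a ratio of 1.58, and the log2 fold change was 0.57 (SE 0.11, interval 0.31 to 0.83, limma adjusted p = 0.0345). Its 453 to 775 fragments per library rose in 3 of 3 same-numbered pairs, by 1.69, 1.49 and 1.54 times in FPKM. The call was lost with no filter (adjusted p = 0.107), when shACAT2-2 was left out (0.111), and when shNC-1 (0.101), or shNC-2 (0.145), or else shNC-3 (0.168) was. An antisense gene, TGFB3-AS1, shares 163 exon bases and was at 0 to 0.425 FPKM.

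TGFB1 (ENSG00000105329, hg38 chr19:41301587-41353911, minus strand), the most widely expressed isoform, was the ligand with the highest level in every library. It was at 25.4, 24.0 and 21.4 FPKM in shNC and at 42.0, 31.9 and 27.2 FPKM in shACAT2. The groups did not overlap, but shACAT2-1 lay far above the other shACAT2 libraries and shACAT2-3 only 1.84 FPKM above the highest shNC library. The means were 23.6 ± 2.05 and 33.7 ± 7.56 FPKM, a ratio of 1.43, and the difference did not pass the test (log2 fold change 0.48, SE 0.17, interval 0.08 to 0.88, limma adjusted p = 0.151). With the replicate number as a block the adjusted p was 0.0471. In both groups library 1 was highest and library 3 lowest, and the same-numbered ratios were 1.66, 1.33 and 1.28. TGFB1 shares 215 exon bases with HNRNPUL1 on the opposite strand, which was at 42.1 ± 3.62 FPKM in shNC and 40.8 ± 7.77 in shACAT2. The strand setting of the counting is not given in the sources used here, and without strand the reads of those bases cannot be told apart.

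The summed level of the 3 TGF-beta ligand genes was 33.2, 31.8 and 28.7 FPKM in shNC and 56.0, 45.2 and 39.7 FPKM in shACAT2. The sums did not overlap, and TGFB1 made up most of each. TGFB2 was 5.04%, 5.50% and 7.06% of the sum in shNC and 6.46%, 9.74% and 10.7% in shACAT2, so its share overlapped between the groups. TGFB3 was 18.5% to 18.8% of the sum in shNC and 18.5% to 20.8% in shACAT2.

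The promoters of the 3 ligand genes are shown because each gene lay higher in shACAT2, although TGFB1 was not called. TGFB2 and TGFB3 both hold an E-box, and their start regions otherwise differ in the motifs searched. The RefSeq sequences (GRCh38.p14) run from 250 bases before to 50 bases after the annotated start, 5′ to 3′ on the gene's own strand, and capitals mark every match to the 7 motifs searched, in either direction. They lie at chr19:41353873-41354172 for TGFB1, chr1:218345086-218345385 for TGFB2 and chr14:75982962-75983261 for TGFB3. The RefSeq start of TGFB2 is 899 bases upstream of the gene start in the deposited table, against 11 for TGFB1 and 20 for TGFB3.
TGFB1: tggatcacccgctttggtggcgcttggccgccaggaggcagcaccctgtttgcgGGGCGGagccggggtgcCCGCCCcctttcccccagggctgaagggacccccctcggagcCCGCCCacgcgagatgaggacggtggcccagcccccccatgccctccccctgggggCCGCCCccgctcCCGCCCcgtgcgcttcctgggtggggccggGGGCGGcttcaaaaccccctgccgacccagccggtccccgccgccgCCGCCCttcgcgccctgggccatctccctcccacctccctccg
TGFB2: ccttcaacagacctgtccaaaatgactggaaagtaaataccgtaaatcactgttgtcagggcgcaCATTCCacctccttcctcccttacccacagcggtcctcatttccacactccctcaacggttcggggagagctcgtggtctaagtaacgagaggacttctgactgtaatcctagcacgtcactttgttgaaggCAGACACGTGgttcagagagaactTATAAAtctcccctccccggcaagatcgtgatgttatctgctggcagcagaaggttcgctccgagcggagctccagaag
TGFB3: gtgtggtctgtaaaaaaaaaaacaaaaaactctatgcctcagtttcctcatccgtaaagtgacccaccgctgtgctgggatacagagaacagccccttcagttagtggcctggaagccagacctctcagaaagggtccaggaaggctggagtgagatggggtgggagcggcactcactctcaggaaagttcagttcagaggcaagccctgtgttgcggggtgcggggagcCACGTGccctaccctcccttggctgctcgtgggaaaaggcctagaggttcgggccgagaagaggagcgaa
The core promoter motif searched, bound by the TATA-binding protein, was TATAAA. The GC box, bound by Sp1, was GGGCGG. The SMAD motif was CAGACA, the E-box was CACGTG, and the motif of the TEAD factors was GGAATG. The cyclic AMP response element was TGACGTCA and the AP-1 motif was TGANTCA, where N is any base. The TGFB1 window had 77.3% GC and 7 GC boxes, and no other motif searched. The TGFB2 window had 51.7% GC, a TATA box starting at -29, a TEAD motif at -185 on the minus strand, and a SMAD motif at -53 whose last letters overlap an E-box at -49. In the TGFB3 window the only match was an E-box at -20. GC boxes occurred in 45% of the 35116 RefSeq promoters of this length, TATA boxes in 11.5%, TEAD motifs in 14%, SMAD motifs in 16.9% and E-boxes in 7.26%. Of all 10 genes, TGFB2 and TGFB3 held an E-box, TGFB2 and INHBA the letters TATAAA and a SMAD motif, and LTBP1 the cyclic AMP response element, which 1.85% of promoters held. In INHBA TATAAA started at -11, against -29 in TGFB2. The RefSeq starts of TGFBR1, INHBA and TGFBR3 lay furthest inside the gene of the deposited table. Counted as bases upstream of its start, they were at -1075, -2744 and -20184. GC boxes were found in TGFB1, TGFBR3, TGFBI and LTBP2, and the AP-1 motif, found in 7.71% of promoters, in none of the 10. No motif searched occurred in the windows of TGFBR1 and TGFBR2. A match describes letters only.

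**Figure D2:**
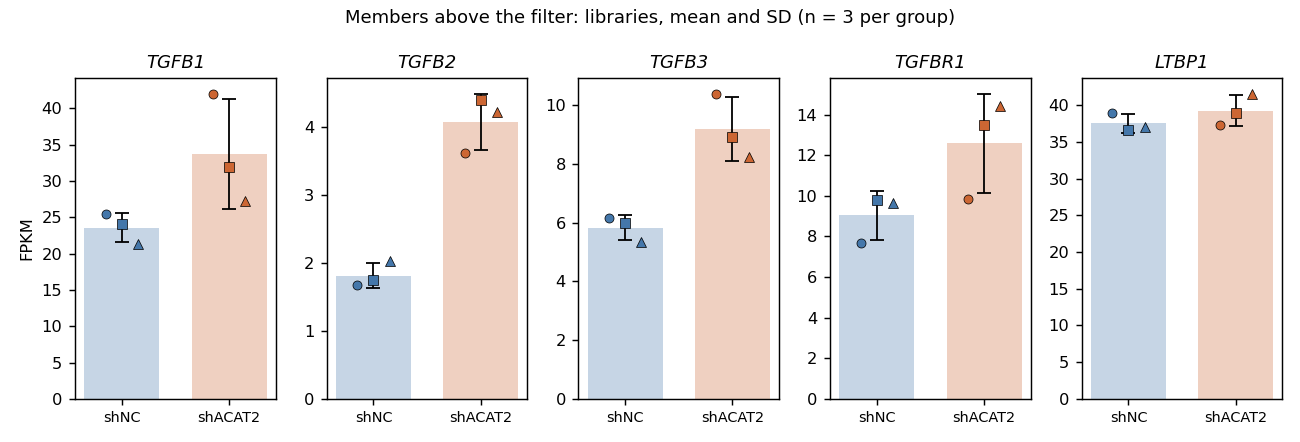
FPKM of the 5 genes that passed the filter, each panel with its own linear axis from 0; bars are means of 3 libraries, error bars SD, and points single libraries (circle, square and triangle for replicates 1, 2 and 3). TGFB2 rose from 1.82 to 4.08 FPKM and TGFB3 from 5.83 to 9.18 with no overlap between groups, and LTBP1 overlapped.

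INHBA (ENSG00000122641, hg38 chr7:41667168-41705834, minus strand) encodes the beta A subunit, which pairs with itself to form activin A. It had 2, 0 and 0 fragments in shNC and 0, 0 and 10 in shACAT2, that is 0.0157, 0 and 0 FPKM against 0, 0 and 0.0803. The only library with more than 2 fragments was shACAT2-3, where the rate in silent genes would give 6.46 fragments over a gene of this length. A count of 0 allows up to 3 fragments, or 0.021 to 0.0241 FPKM for INHBA, a limit that covers counting error only. A difference in INHBA was not detectable at this depth.

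Of the receptors, TGFBR1 was well above 1 FPKM, the co-receptor TGFBR3 close to it, and TGFBR2 close to 0. TGFBR1 (ENSG00000106799, hg38 chr9:99104038-99154192, plus strand), the type I receptor kinase, was at 7.66, 9.81 and 9.67 FPKM in shNC and at 9.83, 13.5 and 14.5 FPKM in shACAT2. The groups met almost exactly, since the lowest shACAT2 library and the highest shNC library differed by 0.0112 FPKM. Within each group library 1 was lowest, the reverse of TGFB1, and the same-numbered ratios were 1.28, 1.38 and 1.49. The means of 9.05 ± 1.21 and 12.6 ± 2.44 FPKM gave a difference that did not pass the test (log2 fold change 0.43, SE 0.16, interval 0.04 to 0.82, limma adjusted p = 0.178). With the replicate number as a block the adjusted p was 0.0345, and without shACAT2-1 it was 0.0491.

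TGFBR2 (ENSG00000163513, hg38 chr3:30606502-30694142, plus strand), the type II receptor that binds ligand first, had 3, 7 and 3 fragments in shNC and 5, 3 and 7 in shACAT2. These are 0.0417, 0.0918 and 0.0370 FPKM against 0.0700, 0.0384 and 0.0992, and the groups overlapped fully. In shACAT2-3 the rate in silent genes would give 3.66 of its 7 fragments, and in the other libraries at most 0.381. Per length, the level of TGFBR1 was 107 to 352 times that of TGFBR2, depending on the library. TGFBR2 lay below the filter, and its change was not measurable at this depth.

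TGFBR3 (ENSG00000069702, hg38 chr1:91680343-91906335, minus strand), or betaglycan, presents ligand to TGFBR2. It was at 0.796, 1.03 and 0.773 FPKM in shNC and at 0.726, 0.878 and 0.896 FPKM in shACAT2. Both the highest library, shNC-2, and the lowest, shACAT2-1, were on the opposite side from the ligands, and the groups overlapped. It lay below the filter, and without the filter its log2 fold change was -0.03 (interval -0.33 to 0.28, limma adjusted p = 0.938). The ratio of TGFBR1 to TGFBR3 was 9.62, 9.49 and 12.5 in shNC and 13.5, 15.4 and 16.1 in shACAT2. These ratios did not overlap between the groups, and no test was made of them.

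LTBP1 (ENSG00000049323, hg38 chr2:32946972-33399509, plus strand), which tethers latent TGF-beta to the matrix, was at 39.0, 36.6 and 37.1 FPKM in shNC and at 37.3, 38.9 and 41.6 FPKM in shACAT2. The groups overlapped, and shACAT2-3 alone lay above all shNC libraries. With 4155 to 4737 fragments per library it was the most deeply covered of the 10 genes. Its means were 37.5 ± 1.27 and 39.3 ± 2.15 FPKM and its log2 fold change was 0.06 (SE 0.10, interval -0.17 to 0.29, limma adjusted p = 0.748). A change of the size seen for TGFB2 or TGFB3 lay outside that interval. LTBP1 shares 249 exon bases with an antisense gene that was at most at 0.244 FPKM.

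LTBP2 (ENSG00000119681, hg38 chr14:74498170-74612378, minus strand), a family member of elastic fibres that does not bind latent TGF-beta, was at 0.525, 0.597 and 0.491 FPKM in shNC and at 0.768, 0.675 and 0.645 FPKM in shACAT2. The groups did not overlap at this low level of 73 to 106 fragments per library, and the ratio of the means was 1.29. In shACAT2-3, the lowest shACAT2 library, the rate in silent genes would give 7.08 of the 88 fragments, or 0.0519 FPKM. That is more than the 0.0480 FPKM that separated the groups, so the lack of overlap cannot be told apart from this background. It lay below the filter, and without the filter its log2 fold change was 0.14 (interval -0.16 to 0.44, limma adjusted p = 0.669). The ratio of LTBP1 to LTBP2 was 48.6 to 75.5 over the libraries.

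TGFBI (ENSG00000120708, hg38 chr5:136028895-136063818, plus strand) encodes a secreted matrix protein named for its induction by TGF-beta. It had 0, 1 and 0 fragments in shNC and 4, 3 and 13 in shACAT2, that is 0, 0.0079 and 0 FPKM against 0.0337, 0.0231 and 0.111. The groups did not overlap, but the highest value came from shACAT2-3, where the rate in silent genes would give 6.08 fragments. In shACAT2-1 and shACAT2-2 that rate would give 0.397 and 0.433, against the 4 and 3 observed. A count of 0 allowed up to 0.0251 FPKM in shNC-1 and 0.0223 in shNC-3, just above and just below the value of shACAT2-2, and without the filter the adjusted p by limma was 0.638. TGFBI lay near the limit of detection in both groups.

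The genes around the 10 were described by lists. Of 21 genes for latency and activation of the ligand, 14 were tested, and 1 was called higher and none lower, beside 3.30% of all genes called higher. At an unadjusted limma p under 0.05 there were 5 higher and 0 lower, beside the 23.5% of all genes in either direction, and the median log2 fold change was 0.28. DCN, or decorin, a proteoglycan that binds TGF-beta, was the gene called, at 8.11 ± 0.0521 FPKM in shNC and 12.3 ± 0.925 in shACAT2 (log2 fold change 0.54, SE 0.09, limma adjusted p = 0.0246). The genes of that list with the highest levels were BGN, or biglycan, at 118 ± 10.5 and 167 ± 23.9 FPKM (adjusted p = 0.0958), and EMILIN1, an inhibitor of proTGF-beta processing, at 52.3 ± 3.87 and 58.1 ± 24.4 (0.929). LTBP3 and LTBP4, the other latent binding proteins, were at 10.5 ± 0.770 and 19.3 ± 1.73 FPKM in shNC and at 10.2 ± 2.26 and 16.9 ± 2.98 in shACAT2, and neither was called (adjusted p = 0.864 and 0.472).

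On the activin, inhibin and nodal side, 9 of 17 genes were tested and none was called in either direction by limma, with 5 at an unadjusted p under 0.05 (3 higher and 2 lower, against 23.5% of all genes) and a median log2 fold change of 0.01. GDF11, a ligand that signals through SMAD2 and SMAD3, was the highest of them in shNC, at 24.2 ± 1.42 FPKM in shNC and 17.2 ± 1.76 in shACAT2 (adjusted p = 0.0577). ENG, or endoglin, a co-receptor like TGFBR3, was at 17.1 ± 1.30 and 23.9 ± 3.72 FPKM (0.105) and lay above GDF11 in shACAT2. All 18 SMADs and SMAD regulators were tested and none was called by limma, with 6 at an unadjusted p under 0.05 (4 higher and 2 lower, against the same 23.5%) and a median of -0.01. The highest were STRAP, which holds SMAD7 at the receptor, at 77.0 ± 2.87 FPKM in shNC and 1.31 times that in shACAT2 (0.0874), and FKBP1A, which binds TGFBR1, at 66.5 ± 6.13 and 83.3 ± 8.56 (0.184).

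Among 25 genes known to respond to TGF-beta, 21 were tested, 12 were called higher and 1 lower, with a median log2 fold change of 0.67, beside the 3.30% of all genes tested that were called higher. The 12 include NEDD9, which passed the filter through shACAT2 alone, and the 1 is HMGA2, which passed through shNC alone. With a filter on the mean of all 6 libraries, which left NEDD9 out, 11 of 20 were called higher and 1 lower. That filter called 442 of 13124 genes higher, and the median of the list was 0.63. Several of these genes also answer to YAP/TAZ and serum response factor, and CTGF, NEDD9 and HMGA2 were known from earlier results of these data, so the count is a description. SMAD7, the inhibitory SMAD that closes the feedback loop on TGFBR1, was at 5.15, 4.46 and 4.78 FPKM in shNC and at 9.15, 7.78 and 6.58 FPKM in shACAT2. Its libraries did not overlap between groups (log2 fold change 0.60, SE 0.13, limma adjusted p = 0.0445). CDKN2B, the cell cycle inhibitor through which TGF-beta arrests epithelial cells, was at 3.21 ± 0.385 FPKM in shNC and 5.35 ± 0.499 in shACAT2 (0.0305), and CDKN1A, another inhibitor, at 3.73 ± 0.414 and 7.49 ± 1.73 (0.0343).

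The largest change in this list on the log2(FPKM + 1) scale was that of ACTA2, smooth muscle actin, although by the ratio of means NEDD9 rose more (7.76 against 4.32 times). ACTA2 was at 4.44, 3.73 and 3.16 FPKM in shNC and at 19.7, 14.3 and 14.9 FPKM in shACAT2. Its log2 fold change was 1.85 (SE 0.16, limma adjusted p = 0.00347), with no overlap. TAGLN, an actin-binding protein of smooth muscle, rose from 1.56 ± 0.223 to 6.16 ± 1.96 FPKM and TPM1, a tropomyosin, from 4.97 ± 0.304 to 11.8 ± 1.16. COL1A1, the main chain of type I collagen, was the highest gene of the list and rose from 61.0 ± 5.22 to 121 ± 16.1 FPKM (log2 fold change 0.97, adjusted p = 0.0136).

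The secreted matricellular proteins CTGF and CYR61 rose from 2.24 ± 0.824 to 7.55 ± 1.10 FPKM and from 13.1 ± 0.872 to 33.5 ± 7.31. SNAI2, a transcription factor of mesenchymal cells, rose from 4.02 ± 0.512 to 6.97 ± 0.320, TUFT1 from 4.08 ± 0.567 to 7.08 ± 0.991, and NEDD9, an adhesion scaffold, from 0.181 ± 0.0186 to 1.40 ± 0.169, so that NEDD9 passed the filter through the shACAT2 libraries alone. The gene called lower, the chromatin protein HMGA2, went from 2.36 ± 0.251 to 0.930 ± 0.128 FPKM and passed through the shNC libraries alone. JUNB, an AP-1 subunit and early target, had the second place by level, at 25.4 ± 3.39 and 37.6 ± 17.7 FPKM, and was not called (0.480). Without shNC-3 or without shACAT2-2, 2 genes of the list were called higher, ACTA2 and TPM1, and without shNC-1 and shNC-2 the counts were 4 and 3.

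**Figure D3:**
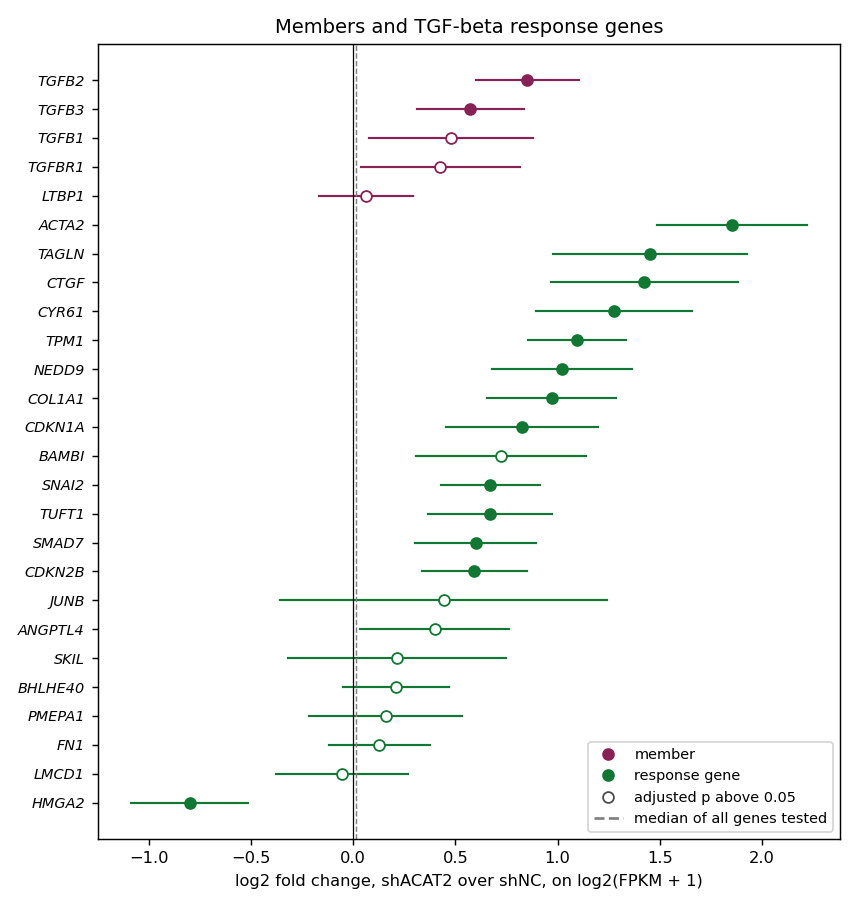
Log2 fold change of shACAT2 over shNC on log2(FPKM + 1), with 95% intervals from limma, for the 5 members tested (top) and the 21 response genes tested; filled points have an adjusted p under 0.05 and the dashed line is the median of all genes tested. TGFB2 at 0.85 and TGFB3 at 0.57 lie among the response genes, whose median was 0.67 and whose highest was ACTA2 at 1.85. Of the response genes, NEDD9 passed the filter through shACAT2 alone and HMGA2 through shNC alone.

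The gene whose pattern over the 6 libraries was most like that of TGFB2, by Pearson r of log2(FPKM + 1) among the genes tested, was CALU, a calcium-binding protein of the secretory pathway (r = 0.999, with 741 genes above 0.9). CALU was at 43.1, 43.8 and 46.6 FPKM in shNC and at 63.1, 68.8 and 69.7 in shACAT2. For TGFB3 it was CPE, or carboxypeptidase E (r = 0.998, with 1081 genes above 0.9), at 51.4, 50.7 and 48.4 FPKM in shNC and at 73.2, 66.6 and 63.3 in shACAT2. Over 6 libraries in 2 groups such correlations follow the group difference shared by many genes, and they are given as a description.

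The direction of all 5 tested genes was positive under each of 14 alternative settings, and calls depended on the setting. TGFB2 was called in 9 of the 14 (adjusted p from 0.00319 to 0.0696) and TGFB3 in 8 (0.0159 to 0.168). TGFB1 was called in 1 of the 14 and TGFBR1 in 2, and LTBP1 in none (0.54 to 0.962).

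**Figure D4:**
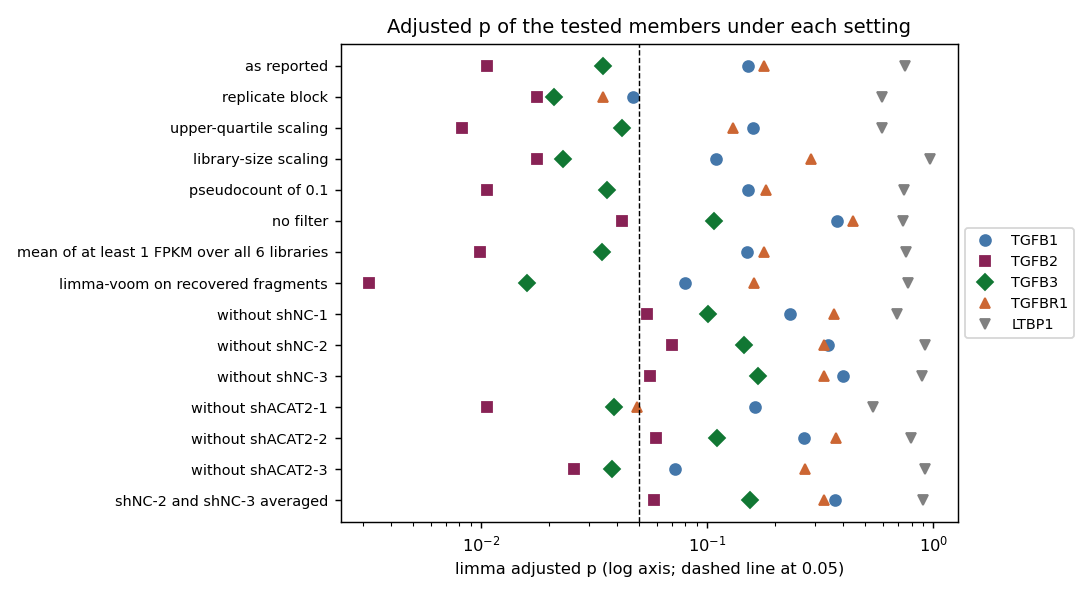
limma adjusted p (log axis) of TGFB1, TGFB2, TGFB3, TGFBR1 and LTBP1 as reported and under each of 14 alternative settings, with a dashed line at 0.05; names such as shNC-1 give the library left out. TGFB2 ranged from 0.00319 to 0.0696 and crossed the line only when shACAT2-2 or any 1 of the 3 shNC libraries was left out, or when libraries 2 and 3 of shNC were averaged.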

How the data were processed

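RNA-seq of 3 shNC and 3 shACAT2 HGC-27 libraries was used, grouped by the sample labels. The authors deposited FPKM values for 58735 genes with Ensembl gene identifiers, symbols and lengths. The submitters' processing notes name hg38, HISAT2 2.0.5, featureCounts 1.5.0-p3 and DESeq2 1.20.0. The strand setting is not given in the sources used here, so reads of overlapping antisense genes may be mixed. Fragments were recovered from FPKM and gene length, 100% of them whole within 0.1, giving 14086416 to 16067486 per library. The denominator of FPKM was 0.957 to 1.07 times this total.

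The members and gene lists were chosen with earlier results of these data known. Genes were tested if their mean reached 1 FPKM in one group or both. The deposited FPKM, not scaled further, were taken as log2(FPKM + 1) and fitted by limma 3.58.1 under R 4.3.3, using its trend option. Benjamini-Hochberg adjustment covered all 13832 genes, and the threshold was 0.05. Single members were also compared by an exact two-sided permutation test. The script was tested on simulated data. Named genes were the 10 members, ACAT2, the called and the 2 highest genes of each list, and the gene most correlated with each member called. Neither the epithelial markers nor the leukocyte and endothelial markers had a called gene. The epithelial list is given by its sum, its members at 0, KRT8, CDH1 and CLDN18, and the other by its sum alone. CLDN18, PDGFRA, FAP, LTBP3 and LTBP4 were named outside this rule. Deviations from the group means, over genes, were correlated between same-numbered libraries (r = 0.445, 0.126 and 0.171 for numbers 1, 2 and 3, all over 0.1). The numbers come from the labels. Because shNC-2 with shACAT2-3 gave 0.198 and shNC-3 with shACAT2-2 gave 0.141, these correlations did not settle which libraries form pairs. The reported test used no pairing, and the replicate block was an alternative. The submitters call the libraries biological replicates, and nothing says more of the cultures, so p-values measure the spread between these libraries. Promoters came from RefSeq (GRCh38.p14), and all 10 members matched by symbol. Python 3.11.15, numpy 2.4.6, pandas 2.3.3 and matplotlib 3.10.9 were used. Alternatives were a replicate block, other scalings, a pseudocount of 0.1, other filters, limma-voom on recovered fragments, each library left out, and shNC-2 and shNC-3 averaged.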

Additional observations from a re-analysis of the deposited data

How the results depend on the processing

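Of the 10 members 2 were called as reported, 4 with the replicate block (a paired fit), 1 with no filter, and 0 when libraries 2 and 3 of shNC were averaged (2 by limma at an unadjusted p under 0.05). At an absolute log2 fold change above 1 and an unadjusted p under 0.05 the count was 0 (4 by that p alone), but 1, TGFB2, with a pseudocount of 0.1 and 1 with limma-voom, both tried on this count after seeing the data. Leaving out each library gave 0 to 3 (2 to 4 unadjusted). The count was 0 without shACAT2-2 and without any 1 of shNC-1, shNC-2 and shNC-3. It was 3 without shACAT2-1, where TGFBR1 was added. Over all genes the 706 calls became 1727 with the replicate block, 209 with no filter, 1089 with limma-voom, 83 with the averaged libraries and 63 to 862 with each library left out. The 12 response genes called higher, whose alternatives were chosen after seeing the data, became 5 with no filter, 2 with the averaged libraries and 2 to 13 with each library left out. The block changed no call among the members other than TGFB1 and TGFBR1. No alternative turned the direction of a member tested, and other scalings, a pseudocount of 0.1 and a filter on the mean of all 6 libraries left the count at 2. The cause of the lost calls was not tested. Depth limited TGFBR2, TGFBI and INHBA, which had at most 13 fragments in a library.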
